A study of Mus musculus with 10 samples.

Results

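The genes described here are targets of ATF4, the transcription factor that cells make when amino acids run short, and the question is whether they moved together with the chaperones of the endoplasmic reticulum (ER) in fasted livers that lack both macroH2A histone variants. The list held 10 genes, chosen by name. This list and the lists compared with it below were chosen with earlier results of these data known. A gene was measured if the array's annotation gave a probe set that symbol and no other. By this rule 9 of the 10 were found among 22180 genes, each on 1 probe set, and Gdf15, a circulating stress hormone, was on no probe set with that symbol and is not analysed here. The groups were 5 livers with macroH2A1 macroH2A2 double knockout and 5 wild-type livers. All came from male mice of the strain 129/S6 (taconic), aged 2 months, kept on low fat chow and fasted overnight for about 16 h. The labels do not say how the knockout alleles were made, and no fed livers were analysed here. The labels do not state that each sample is a separate animal, so p-values measure the spread between these samples.

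When a cell lacks amino acids, transfer RNAs without their amino acid activate the kinase GCN2 (gene Eif2ak4), which phosphorylates the translation factor eIF2. When unfolded proteins gather in the ER, the kinase PERK (gene Eif2ak3) phosphorylates the same factor. Most translation then slows while ATF4 is made, and ATF4, often paired with a C/EBP protein, switches on genes that supply and carry amino acids, charge transfer RNAs and temper the stress. The ER also signals through the sensors IRE1 (gene Ern1) and ATF6, which act mainly on chaperone genes. The chaperone genes and the ATF4 targets are therefore compared as lists. They are not clean readouts of separate arms, since ER stress also reaches ATF4 through PERK. Liver is a main site of amino acid handling during a fast.

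The array's levels are log2 values per probe set as deposited, and a difference of 1 on this scale is a doubling. Medians of the 10 arrays lay between 6.43 and 6.46, and array correlations between 0.989 and 0.995. Macroh2a1 had log2 levels of 9.18, 9.02, 9.14, 9.15 and 9.04 in double knockout livers, against 9.66, 9.61, 9.51, 9.66 and 9.56 in wild-type livers, with every double knockout array below every wild-type array and a log2 difference of -0.49 (SE 0.05; limma adjusted p = 0.00128). Macroh2a2 averaged 6.12 ± 0.19 in double knockout and 6.32 ± 0.28 in wild-type livers (SD, n = 5 each), under the 95th percentile of 1108 olfactory receptor probe sets, 6.54, which serves as a guide to background. Neither probe set could be placed against the deleted parts of these genes, so what signal remains says little about intact transcript. All 11 measured hepatocyte markers stood above that guide, and their mean log2 level per array ran from 13.19 to 13.22 in double knockout and from 13.19 to 13.26 in wild-type livers. Pancreatic enzyme genes set 4 arrays apart: the mean of 15 acinar markers was 8.69 and 8.90 in double knockout replicates 1 and 2 and 9.93 and 11.13 in wild-type replicates 4 and 5, against 6.10 to 6.79 on the other 6 arrays. All 12 macrophage markers were higher by mean in double knockout livers, where 48.5% of all tested probe sets were. Of the 12 markers 2 were called in limma, against 0.884% of all tested probe sets in either direction. Their mean log2 level per array was 9.06 to 9.39 in double knockout and 8.81 to 9.15 in wild-type livers. None of these markers lay under the guide, and their part in the results below was not tested. In whole liver RNA, fewer cells of a type and less RNA per cell cannot be told apart.

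The promoters show how the ATF4 targets and the chaperones differ in sequence. ATF4 with a C/EBP partner binds a composite element, searched here as TGATGNAA, and the chaperones are known for the ER stress response element, searched as CCAAT, then any 9 bases, then CCACG. Both were searched on both strands of RefSeq promoter windows (GRCm38.p6), from 250 bases before to 50 bases after each start site, and the letters of one motif are not part of the other. The stretches below are shown because they hold the matches of Asns, Chac1 and Nupr1, of Gars1, which was the ATF4-linked gene outside the list that passed the test, and of the chaperone Hspa5. Each reads 5′ to 3′ along its gene, stops before the start site, and has the match in capitals; the capitals of Chac1, Nupr1 and Gars1 are the motif's other strand.
Asns, chr6:7693210-7693272, minus strand: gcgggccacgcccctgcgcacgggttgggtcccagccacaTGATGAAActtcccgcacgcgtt
Chac1, chr2:119351009-119351096, plus strand: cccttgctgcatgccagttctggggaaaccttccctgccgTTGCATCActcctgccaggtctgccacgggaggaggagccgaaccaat
Nupr1, chr7:126625533-126625620, minus strand: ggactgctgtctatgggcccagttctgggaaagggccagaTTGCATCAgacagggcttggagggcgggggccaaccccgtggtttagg
Gars1, chr6:55037931-55038000, plus strand: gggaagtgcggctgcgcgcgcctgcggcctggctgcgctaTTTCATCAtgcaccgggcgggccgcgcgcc
Hspa5, chr2:34771985-34772083, plus strand: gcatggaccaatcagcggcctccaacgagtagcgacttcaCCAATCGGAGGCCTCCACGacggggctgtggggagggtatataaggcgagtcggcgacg

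The match lies 15 bases before the start site in Asns, 185 in Chac1, 102 in Nupr1, 22 in Gars1 and 46 in Hspa5. Trib3 has its match after the start site, at chr2:152344039-152344046, which makes 4 of the 10 listed ATF4 targets (40%) with TGATGNAA, against 4.51% of the 27025 genes with a promoter window. None of the 10 holds the ER element, which 0.137% of all genes hold. Among ER folding genes the picture is the other way round: 10 of the 23 with a window (43.5%) hold the ER element and 1, Herpud1, holds TGATGNAA (4.35%). Sesn2, Psat1, Phgdh, Gdf15, Atf5 and Stc2 have neither set of letters in these windows. A match is a description of the letters and not of binding.

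Asparagine synthetase, Asns, makes asparagine and is one of the most used readouts of the amino acid response. Its log2 levels were 9.58, 9.72, 9.75, 9.43 and 9.73 in double knockout livers, against 9.11, 8.41, 8.91, 10.00 and 8.79 in wild-type livers. The double knockout livers were all high and close together, and 4 of the 5 wild-type livers lay below all of them, while wild-type replicate 4 lay above all of them. The means were 9.64 ± 0.14 in double knockout and 9.04 ± 0.59 in wild-type livers (SD, n = 5 each), a log2 difference of 0.60 (SE 0.23, 95% interval 0.11 to 1.09), or 1.52-fold. It was not called (limma adjusted p = 0.23, exact permutation p = 0.0556 two-sided). Without wild-type replicate 4 the difference was 0.84 and was called (limma adjusted p = 0.0153), and without wild-type replicate 2, the lowest, it was 0.44 (limma adjusted p = 0.403). Wild-type replicate 4 is also 1 of the 4 arrays with high pancreas markers, whose part in the Asns values was not tested; without those 4 arrays the difference was 0.83 (limma adjusted p = 0.132).

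Atf5, a transcription factor related to ATF4 and translated in a similar way under stress, had log2 levels of 12.26, 12.38, 12.29, 12.15 and 12.08 in double knockout livers, against 11.99, 11.97, 11.85, 12.09 and 11.97 in wild-type livers. Here 4 of 5 double knockout livers lay above every wild-type liver, and the lowest, replicate 5, lay just under the highest wild-type liver. The means were 12.23 ± 0.12 in double knockout and 11.97 ± 0.09 in wild-type livers (SD, n = 5 each), a log2 difference of 0.26 (SE 0.06, 95% interval 0.12 to 0.40), or 1.2-fold. This was the member nearest to a call (limma adjusted p = 0.0829, exact permutation p = 0.0159). Without 1 array at a time its limma adjusted p ran from 0.0698 to 0.17 and its difference from 0.22 to 0.30.

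Sesn2, sestrin 2, dampens the growth kinase mTORC1 when the amino acid leucine is short. Its log2 levels were 8.25, 7.83, 7.81, 7.91 and 7.98 in double knockout livers, against 7.76, 7.80, 7.80, 7.85 and 7.47 in wild-type livers. The groups overlapped, with 3 double knockout livers above every wild-type liver and wild-type replicate 5 well below the rest. The log2 difference was 0.22 (SE 0.09, 95% interval 0.02 to 0.42; limma adjusted p = 0.289, exact permutation p = 0.0397). It was 0.14 without double knockout replicate 1, 0.15 without wild-type replicate 5 and 0.11 without the 4 arrays of high pancreas markers.

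**Figure D1:**
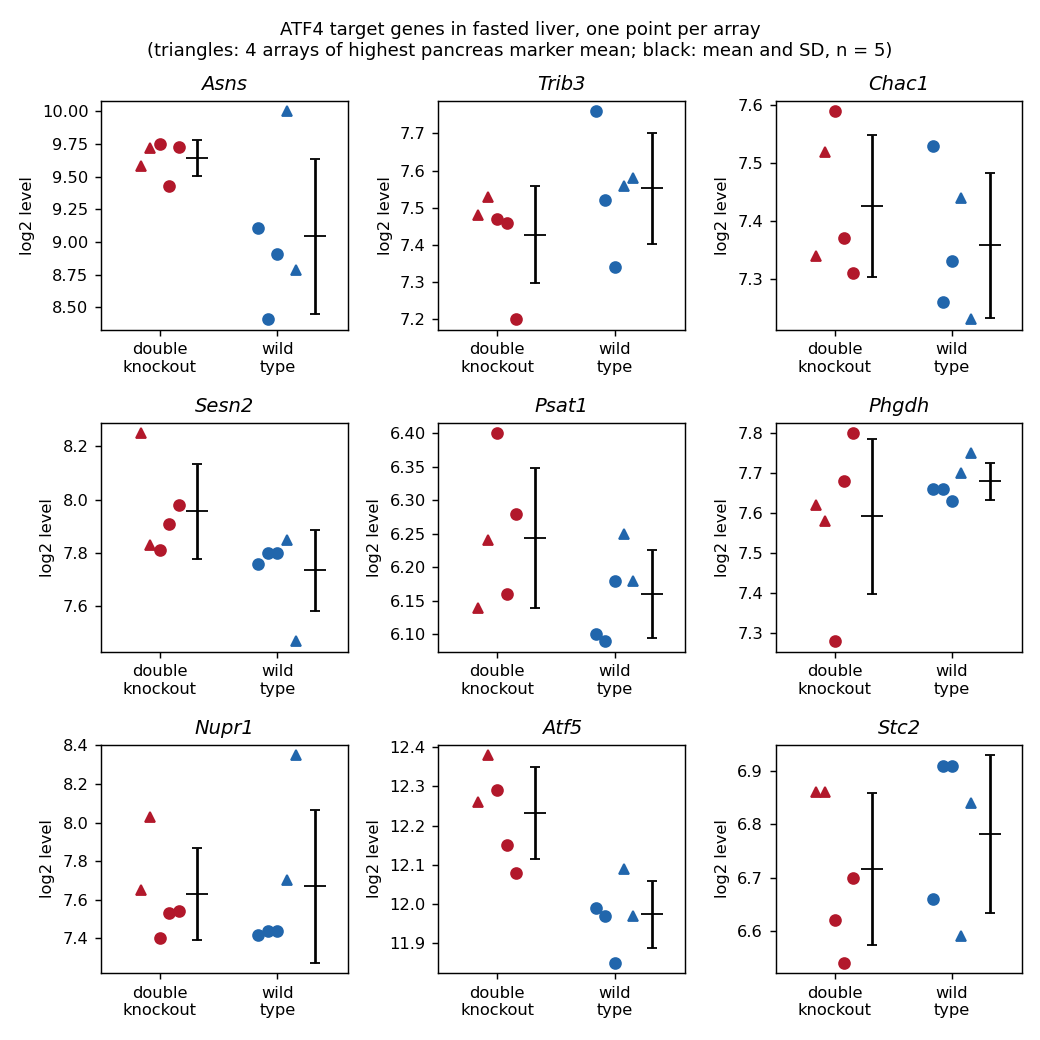
Log2 levels of the 9 measured ATF4 targets on each array (vertical axes, each gene on its own scale) in double knockout livers (left) and wild-type livers (right). Black bars give the mean and SD (n = 5), and triangles mark the 4 arrays with the highest pancreas marker mean. Asns is tight at 9.43 to 9.75 in double knockout livers and spread from 8.41 to 10.00 in wild-type livers, and the 4 highest Nupr1 points are the 4 triangles.

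Trib3, a pseudokinase that is induced by ATF4 and feeds back on it, went the other way in its mean. Its log2 levels were 7.48, 7.53, 7.47, 7.46 and 7.20 in double knockout livers, against 7.76, 7.52, 7.34, 7.56 and 7.58 in wild-type livers, with double knockout replicate 5 below all others. The log2 difference was -0.12 (SE 0.08, 95% interval -0.30 to 0.05; limma adjusted p = 0.515). Chac1, an enzyme that breaks down glutathione and an ATF4 target linked to ER stress, ranged from 7.31 to 7.59 in double knockout and from 7.23 to 7.53 in wild-type livers, with a log2 difference of 0.07 (SE 0.07, 95% interval -0.09 to 0.23; limma adjusted p = 0.728). The groups of Chac1 overlapped along most of their range, while for Trib3 the overlap ran from 7.34 to 7.53 and 3 wild-type livers lay above every double knockout liver. Differences beyond 0.30 in either direction lie outside both intervals.

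Phgdh and Psat1 are successive enzymes of serine synthesis, a route known to be low in liver. Phgdh had log2 levels of 7.28 to 7.80 in double knockout and 7.63 to 7.75 in wild-type livers, a log2 difference of -0.09 (SE 0.08; limma adjusted p = 0.669). The lowest value was that of double knockout replicate 3, without which the difference was -0.01. Psat1 had 6.14 to 6.40 in double knockout and 6.09 to 6.25 in wild-type livers, a log2 difference of 0.09 (SE 0.06; limma adjusted p = 0.526). Its mean lay under the olfactory receptor guide of 6.54, so this probe set may report little beyond background. Stc2, stanniocalcin 2, a secreted glycoprotein induced by stress, had 6.54 to 6.86 in double knockout and 6.59 to 6.91 in wild-type livers, a log2 difference of -0.07 (SE 0.08; limma adjusted p = 0.774), and stood only a little above that guide. Without the 4 arrays of high pancreas markers the difference was -0.21 for Stc2 (limma adjusted p = 0.354) and 0.16 for Psat1 (limma adjusted p = 0.427).

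Nupr1, a small stress-induced chromatin protein that is also abundant in exocrine pancreas, had log2 levels of 7.65, 8.03, 7.40, 7.53 and 7.54 in double knockout livers, against 7.42, 7.44, 7.44, 7.70 and 8.35 in wild-type livers. Its log2 difference was -0.04 (SE 0.17; limma adjusted p = 0.952). The 4 arrays with the highest Nupr1, wild-type replicate 5, double knockout replicate 2, wild-type replicate 4 and double knockout replicate 1, were the 4 with the highest pancreas marker mean, and no other member had the same 4 on top. Without these arrays the difference was 0.06 (limma adjusted p = 0.725). Of the 15 pancreas markers 2 had higher means in double knockout livers and 0 were called in limma; only Prss2, Try5 and Rnase1 averaged at or under the olfactory receptor guide. The part of pancreas RNA in the Nupr1 values was not tested.

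**Figure D2:**
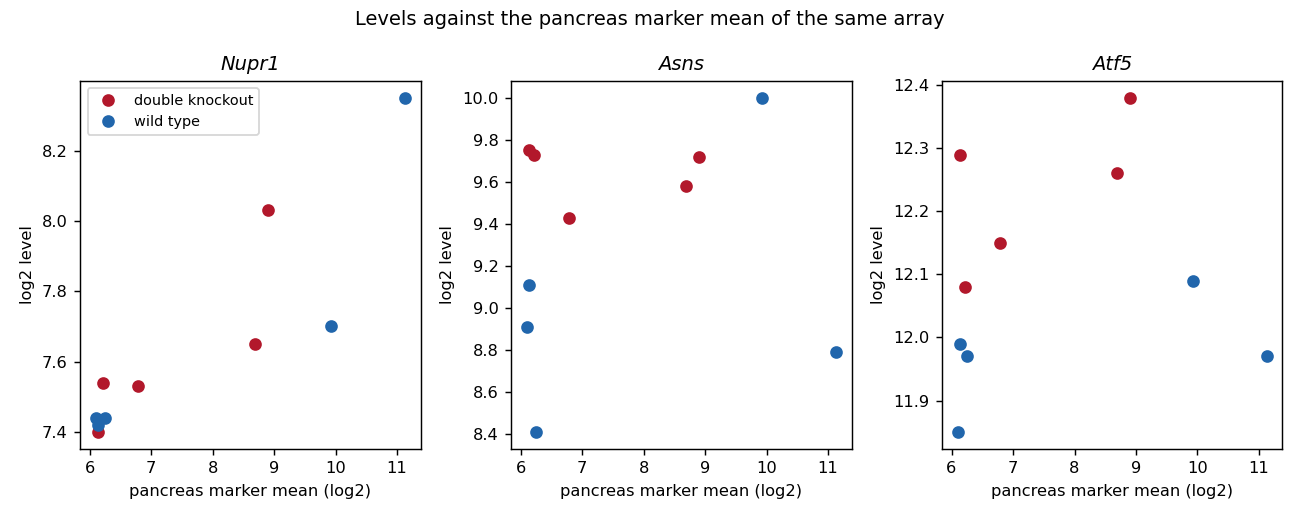
Log2 levels of Nupr1, Asns and Atf5 (vertical axes) against the mean log2 level of 15 pancreas acinar markers on the same array (horizontal axes), one point per array, in double knockout and wild-type livers. Nupr1 is highest on the 4 arrays at the right; the array farthest right, wild-type replicate 5, has a Nupr1 level of 8.35, an Asns level of 8.79 and an Atf5 level of 11.97.

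Over the list, 0 of the 9 measured ATF4 targets were called in limma, where 0.884% of the 25335 tested probe sets were, 0.332% higher and 0.553% lower. At an unadjusted limma p under 0.05 there were 3 (Asns, Atf5 and Sesn2, all higher), or 33.3% of members against 15.1% of all tested probe sets. By the exact permutation test, unadjusted, there were 2 under 0.05, Atf5 and Sesn2, or 22.2% of members against 13.7% of all tested probe sets. At a limma adjusted p under 0.10 there was 1, Atf5, or 11.1% of members against 2.31% of all tested probe sets. By their means 5 members were higher and 4 lower in double knockout livers, with a median log2 difference of 0.07, against -0.00 over all tested probe sets, of which 48.5% had higher means. The groups of 0 members were free of overlap, against 3.9% of all tested probe sets. Whether the largest difference, that of Asns, was called depended on wild-type replicate 4.

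Among the other genes of the amino acid response 1 was called, a gene that charges transfer RNAs. It was 1 of 47 measured genes (2.13%) of 51 listed and a rise, where 0.332% of all tested probe sets were called higher and 0.884% in either direction. By their means 31 of the 47 (66%) were higher and 16 lower in double knockout livers, with a median log2 difference of 0.05. Over all tested probe sets 48.5% were higher. Of the 47 genes 42 averaged above the olfactory receptor guide. Slc7a11, Mthfd2, Aldh1l2, Aldh18a1 and Jdp2 averaged under it, and they stay in these counts and in those of the sublists below. Atf4 itself had log2 levels of 8.73, 8.79, 8.97, 8.85 and 8.93 in double knockout livers, against 8.77, 8.78, 8.67, 8.66 and 8.80 in wild-type livers, with overlap and a log2 difference of 0.12 (SE 0.05; limma adjusted p = 0.338). ATF4 is controlled mainly through translation, which an array does not read. Ddit3, which encodes the ER stress factor CHOP, had 7.93, 7.99, 7.79, 8.02 and 8.32 in double knockout livers, against 7.72, 7.84, 7.94, 7.76 and 7.61 in wild-type livers, a log2 difference of 0.23 (SE 0.09; limma adjusted p = 0.24). The 4 kinases that phosphorylate eIF2 were not called. The PERK gene Eif2ak3 had a log2 difference of 0.18 (SE 0.06; limma adjusted p = 0.22) and the GCN2 gene Eif2ak4 one of -0.13 (SE 0.06; limma adjusted p = 0.296). Eif2ak1, the kinase that senses a lack of heme, had -0.14 (SE 0.06; limma adjusted p = 0.316) and Eif2ak2, the kinase activated by double-stranded RNA, -0.06 (SE 0.08; limma adjusted p = 0.811).

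All 11 measured genes of transfer RNA charging (10 aminoacyl-tRNA synthetases and the tRNA exporter Xpot) were higher by mean in double knockout livers, the differences running between 0.01 and 0.26, with a median of 0.14. Gars1, glycyl-tRNA synthetase, rose. Its log2 levels were 10.05, 10.17, 10.15, 10.09 and 10.12 in double knockout livers, against 9.90, 9.87, 9.88, 9.92 and 9.80 in wild-type livers, with no overlap, a log2 difference of 0.24 (SE 0.04, limma adjusted p = 0.0212). The call was lost without wild-type replicate 2 or double knockout replicate 3, 4 or 5 (limma adjusted p up to 0.063; log2 differences of 0.22 to 0.26) and without the 4 arrays of high pancreas markers (0.23, limma adjusted p = 0.138). It was the 1 call among the 11 (9.09%), where 0.332% of tested probe sets were called higher. The groups of Iars1 (0.14) and Mars1 (0.23) also did not overlap, which with Gars1 makes 3 of 11 (27.3%) against 1.75% of tested probe sets with double knockout livers on top, but neither was called (limma adjusted p = 0.126 and 0.165). Next by p was Yars1, with 0.21 (limma adjusted p = 0.0848), where the groups met at 9.49 in double knockout replicate 3 and wild-type replicate 1. At the other end were Wars1 (0.02) and Eprs1 (0.01).

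In the remaining sublists 0 genes were called in limma. Among amino acid transporters 4 of 6 had higher means; lowest in p were Slc7a5, the light chain of the leucine carrier, with 0.26 (limma adjusted p = 0.143), and its heavy chain Slc3a2, with 0.11 (limma adjusted p = 0.409). Among amino acid and one-carbon enzymes 6 of 10 had lower means. Cbs, cystathionine beta-synthase, had log2 levels of 11.62, 11.53, 11.57, 11.55 and 11.64 in double knockout livers, against 11.73, 11.78, 11.73, 11.98 and 11.66 in wild-type livers. Its groups did not overlap, but it was not called (-0.19, limma adjusted p = 0.143). Cbs was the 1 gene of the 47 with double knockout livers wholly lower, as were 545 of the 25335 tested probe sets. The mitochondrial folate enzyme Mthfd1l had -0.17 (limma adjusted p = 0.184). Of 9 other targets 5 had higher means, with 0.20 for the lipoprotein receptor Vldlr (limma adjusted p = 0.156) and -0.12 for the vessel growth factor Vegfa (limma adjusted p = 0.273). At an unadjusted limma p under 0.05 there were 16 of the 47 genes (34%), against 15.1% of all tested probe sets, and 11 by the exact permutation test (23.4% against 13.7%).

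More of the ER folding genes were called, and with larger differences. The name stands for a list of 27 genes, of which Pdia4 was not measured. Beside chaperones and folding enzymes it holds genes of ER protein degradation (Sel1l, Syvn1, Derl1, Derl2, Derl3, Edem1 and Herpud1). It also holds the stress sensors and factors Xbp1, Atf6 and Ern1. Among these added genes Syvn1 alone was called. The rise of the ER folding genes was known when they were chosen, so their values are a description here. Of 26 measured genes 23 (88.5%) had higher means in double knockout livers, against 48.5% of all tested probe sets. Called higher were 13 (50%), against 0.332%, and lower 0, and the median log2 difference was 0.30. Sdf2l1, part of an ER chaperone complex, had a log2 difference of 1.41 (limma adjusted p = 0.00128), the chaperone Hyou1 0.68 (0.00316), the oxidase Ero1b 0.75 (0.00373) and the co-chaperone Dnajb11 0.42 (0.00444). The mean log2 level of the 26 genes per array was 10.81, 10.71, 10.62, 10.83 and 10.82 in double knockout livers, against 10.40, 10.39, 10.42, 10.37 and 10.41 in wild-type livers. Of the 10 with the ER element in their promoter window 7 were called higher (median log2 difference 0.41). Of the 12 measured genes with a window and without the element 4 were (median 0.15), as were 2 of the 4 with no window. Of the 4 ATF4 targets with TGATGNAA 0 were called (median log2 difference 0.02, against 0.09 for the measured ones without it). Of the 10 measured other amino acid response genes with TGATGNAA 1 was called higher, Gars1 (median 0.08). Of the 28 with a window and without it 0 were (median 0.04), as were 0 of the 9 with no window. Without the 4 arrays of high pancreas markers, which leaves 3 against 3, 2 of the 26 ER genes were called, Sdf2l1 with 1.46 and Ero1b with 0.73. In that fit 68 of the 25335 tested probe sets were called, against 224 with all arrays. Hyou1 then had 0.65 (limma adjusted p = 0.0517), Dnajb11 0.41 (0.0934) and Hspa5 0.62 (0.101).

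**Figure D3:**
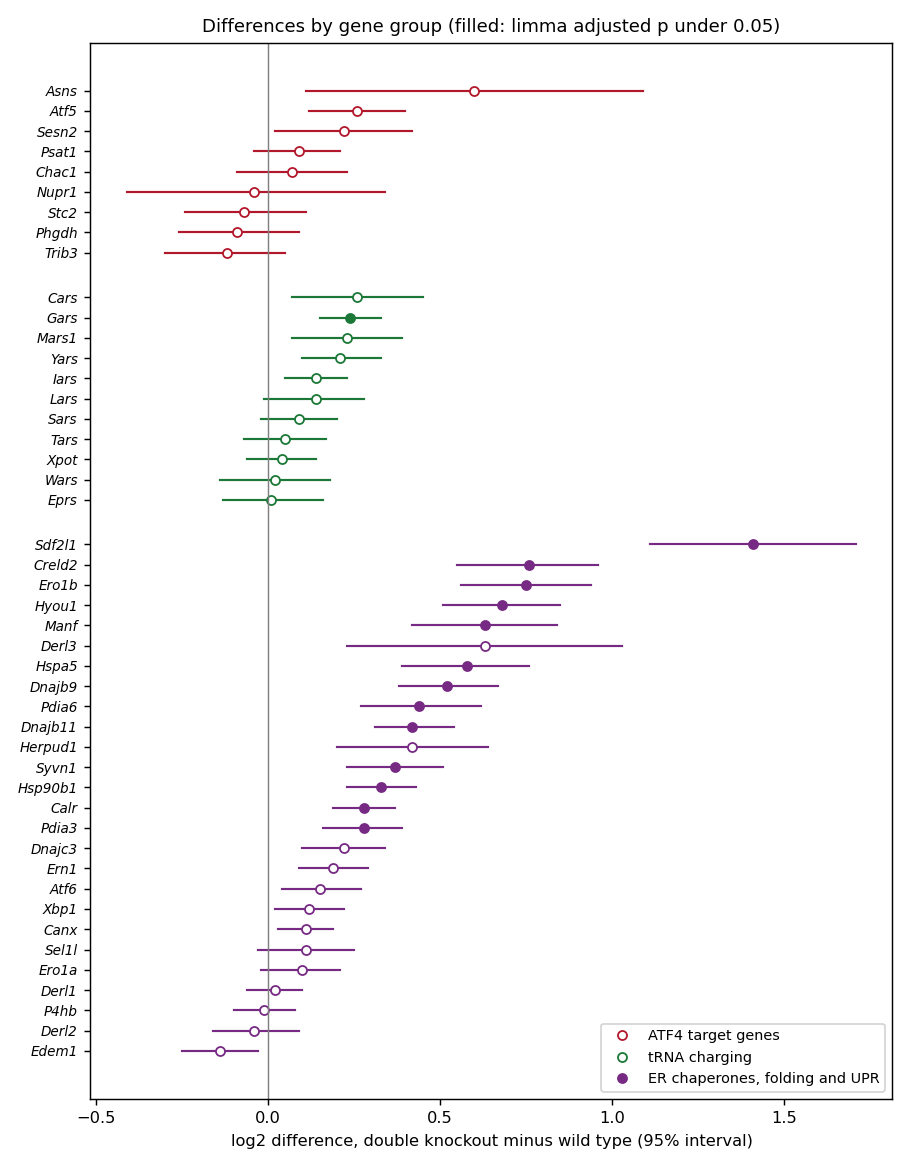
Log2 difference, double knockout minus wild type, with its 95% interval (horizontal axis) for 9 ATF4 targets, 11 genes of transfer RNA charging under the annotation's symbols and 26 ER folding genes with their sensors (vertical axis); filled points were called at a limma adjusted p under 0.05. The ATF4 targets spread from -0.12 to 0.60 around 0 with 0 filled points, the ER genes from -0.14 to 1.41 with 13.

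Each member's difference was also set against that of a single chaperone, Hspa5 (BiP), whose rise was known beforehand. Hspa5 had log2 levels of 10.33, 10.10, 10.08, 10.27 and 10.49 in double knockout livers, against 9.57, 9.58, 9.84, 9.60 and 9.79 in wild-type livers, a log2 difference of 0.58 (SE 0.08; limma adjusted p = 0.0104). With each gene taken minus Hspa5 on the same array, 8 of 9 members were lower relative to it in double knockout livers at a limma adjusted p under 0.05. So were 97.6% of all tested probe sets, and 97.7% differed in either direction, so this count says nothing particular about the members. The ER folding genes themselves stood partly below Hspa5: of the other 25 measured, 14 were lower relative to it and 1 higher by the same test, with a median of -0.30, against -0.51 for the members and -0.58 for all tested probe sets. By their means 19 of these 25 were lower relative to Hspa5 and 6 higher. Canx had -0.47 and P4hb -0.59, both named after their values were seen and neither called between the genotypes. Sdf2l1 had 0.83 and Hyou1 0.10. A place below Hspa5 alone therefore does not set a member apart from the ER list, though the members stood lower by their median. By exact permutation tests, unadjusted and added after the data were seen, 7 members (77.8%) differed from Hspa5 at p under 0.05, as did 17 of the 25 ER genes (68%) and 95.5% of all tested probe sets. The relative differences ran from -0.70 for Trib3 (exact permutation p = 0.00794, the smallest that 5 against 5 can give) to -0.36 for Sesn2 (0.0476) among these 7. Atf5 had -0.32 (0.0714). Asns differed from Hspa5 by 0.02 (exact permutation p = 0.96), but the unmoderated 95% interval, from -0.68 to 0.72, does not show that they moved alike. Without wild-type replicate 4 the log2 difference of Asns relative to Hspa5 was 0.28 (limma adjusted p = 0.0454). No exact permutation test was run without that array, and with all arrays the limma SE was 0.17, against 0.30 unmoderated. A larger rise of Asns than of Hspa5 is therefore not shown.

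Livers of the same genotype were then compared with each other, using each array's deviation from the mean of its genotype (n = 10 arrays, 9 relations with Hspa5). Atf5 deviated against Hspa5, with Pearson r = -0.80 (permutation p = 0.00664, adjusted p = 0.0499) and Spearman rho = -0.78 (permutation p = 0.0106, adjusted p = 0.0921). Chac1 had r = -0.75 (permutation p = 0.0166, adjusted p = 0.0499) and rho = -0.73 (permutation p = 0.0205, adjusted p = 0.0921). Trib3 had r = -0.73 (permutation p = 0.0131, adjusted p = 0.0499) and rho = -0.67 (permutation p = 0.039, adjusted p = 0.117). The sign was negative within the double knockout livers and within the wild-type livers for each of the 3 genes. Atf5 thus had a higher mean in double knockout livers, as did Hspa5, while within them its deviations ran against Hspa5 (r = -0.84). Double knockout replicate 5, with most Hspa5 (10.49), had the lowest Atf5 of these livers (12.08). Double knockout replicate 1, next in Hspa5 (10.33), had an Atf5 level of 12.26, a little above their mean of 12.23.

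These relations pass by a narrow margin and by Pearson's measure only. With arrays permuted within each genotype, a test added after the data were seen, the exact adjusted p was 0.08 for Atf5 and Trib3 and 0.085 for Chac1. Without double knockout replicate 5 and wild-type replicate 3, the arrays whose Hspa5 lay farthest from the median, r was -0.53 for Atf5, -0.79 for Chac1 and -0.26 for Trib3, so the relation of Trib3 rests on those 2 arrays. As a guide, 1.05% of all tested probe sets had an r with Hspa5 of -0.80 or below, and 1.91% and 2.28% had one as low as Chac1 and Trib3. Phgdh had r = 0.66 (permutation p = 0.0248, adjusted p = 0.0559), and Asns r = -0.17 (permutation p = 0.672, adjusted p = 0.761). The other 4 members had r from -0.14 for Psat1 to 0.24 for Stc2. Without the 4 arrays of high pancreas markers (6 arrays left, no test) r was 0.85 for Sesn2, against 0.19 with all arrays, 0.72 for Nupr1, against 0.11, and 0.11 for Asns, against -0.17. It was -0.98 for Atf5, -0.66 for Chac1 and -0.84 for Trib3, and ran from -0.09 to 0.72 for the other 3 members.

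**Figure D4:**
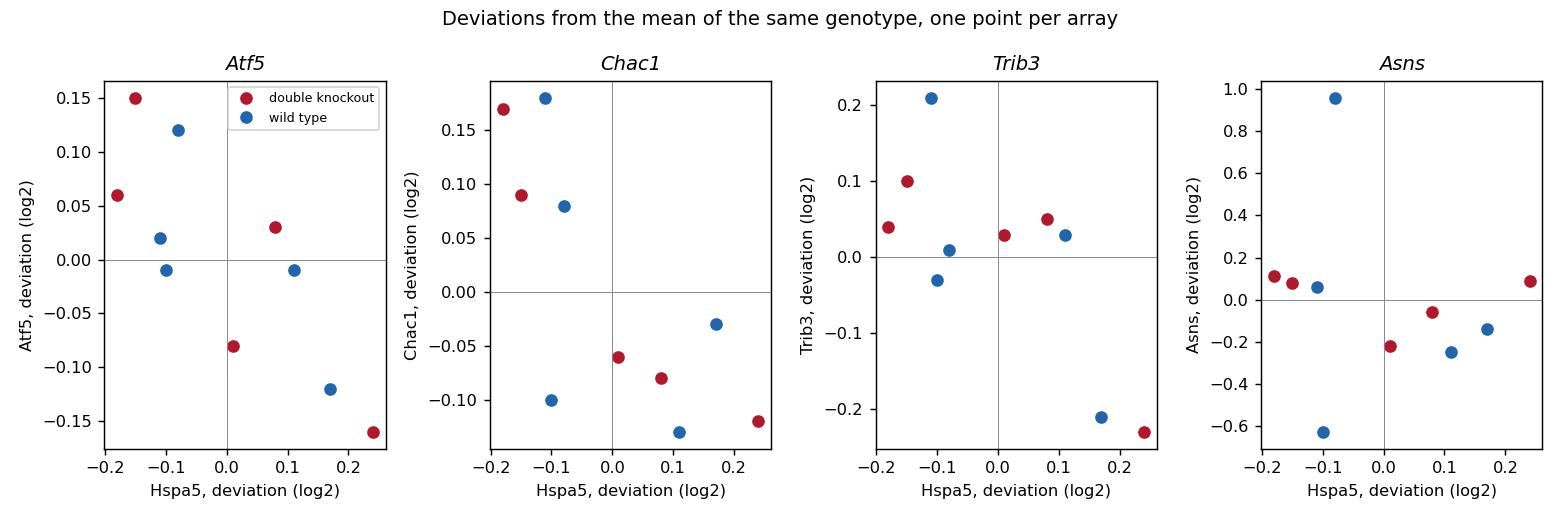
Deviation of Atf5, Chac1, Trib3 and Asns from the mean of the same genotype (vertical axes, log2) against the deviation of Hspa5 (horizontal axes, log2), one point per array, double knockout and wild type. For Atf5 and Chac1 points fall from upper left to lower right (r = -0.80 and -0.75), for Trib3 mainly through the lowest points at the right, and for Asns the widest deviations, of wild-type replicates 4 and 2, lie on the same side of Hspa5.

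By the same deviations, the genes most like Asns across the 10 arrays were Mrpl24 (r = 0.97), a protein of the mitochondrial ribosome, Snapc1 (0.96), a subunit of the small nuclear RNA activating complex, Ksr1 (0.95), a scaffold of the MAP kinase route, Nipa2 (0.95), a magnesium transporter, and Pnn (0.94), a splicing-associated protein. They were taken from 13063 probe sets above the olfactory receptor guide, so values this high come partly from the search, and they carry no test. The Asns deviations were 0.96 in wild-type replicate 4 and -0.63 in wild-type replicate 2, against -0.25 to 0.11 on the other arrays. An r with Asns therefore weighs mainly those arrays, and it was not computed without them. None of these 5 is a member of the lists above, and in limma 0 of them were called between the genotypes (log2 differences of -0.01 to 0.13).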

How the data were processed

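Total liver RNA was measured on 10 Affymetrix arrays. The deposited values are log2 levels. Per the submitters' processing notes, the authors used Affymetrix Expression Console. Anything on its version, summarisation or normalization was not given in the sources used here. Array quartiles lay within 0.05 of each other. Scanner files were not analysed here, so detection and batches could not be read, and the number of arrays limits precision.

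Of 41345 probe sets, 23521 had 1 symbol, 1814 several and 16010 none in the platform annotation; the 25335 with a symbol were tested in limma 3.58.1 (R 4.3.3; lmFit, eBayes, 8 residual and 3.96 prior degrees of freedom) with group as the only term, two-sided, Benjamini-Hochberg over all, called at an adjusted p under 0.05. Where a gene had several probe sets, that of highest mean stood for it; older symbols were matched through the RefSeq table of GRCm38.p6. In the fit relative to Hspa5 all rows share that gene's error, so its p-values are not reliable. The limma SE was smaller than the unmoderated one for some rows (Asns, 0.17 against 0.30) and larger for others (Hyou1, 0.11 against 0.05). Exact permutation tests stand beside this fit. Covariation used 100000 permutations, all two-sided. Same-numbered replicates did not deviate together (r of -0.48 to 0.13), so numbers were not taken as pairs.

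Members and lists were chosen with earlier results of these data known. Named were all members, Atf4, Ddit3, Eif2ak3, Eif2ak4, Hspa5, the targeted genes, per sublist up to 4 called genes or the 2 of lowest p, up to 4 called ER genes, and the 5 genes most like Asns; Iars1, Mars1, Yars1, Wars1, Eprs1, Eif2ak1, Eif2ak2, Canx and P4hb were named after their values were seen.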

Additional observations from a re-analysis of the deposited data

Results flagged for a closer look

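Of 18 groups of 5 arrays (9 genes in 2 genotypes), 2 had an array whose gap to its nearest neighbour exceeded 0.71 of the group's range; chance gives this in about 5% of groups. In double knockout replicate 5 Trib3 was 7.20, while the remaining double knockout livers had 7.46 to 7.53 (gap 0.783 of the range). In wild-type replicate 5 Sesn2 was 7.47, while the remaining wild-type livers had 7.76 to 7.85 (gap 0.771 of the range).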

How the results depend on the processing

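The count of calls among ATF4 targets was also 0 under 11 other fits of the table, in some by a narrow margin for Atf5 (limma adjusted p of 0.0527 to 0.242). Leaving out 1 array gave 0 to 1 (Asns, without wild-type replicate 4). The count was 1 at an adjusted p under 0.10 and 2 by exact permutation. Leave-one-out counts were 64 to 253 for all tested probe sets, 0 to 2 for other amino acid response genes (0 without wild-type replicate 2 or double knockout replicate 3, 4 or 5, so the Gars1 call rests on them), 10 to 14 for ER genes and 7 to 8 for members relative to Hspa5 (7 lower and 1, Asns, higher without wild-type replicate 4; 7 lower without double knockout replicate 5). All tested probe sets called were 377 above the olfactory guide, 75 with every row, 76 with the replicate block and 68 without the 4 arrays of high pancreas markers. Other amino acid response genes called were 2 at 0.10, and 0 with every row, with the replicate block and without those 4 arrays; ER genes were 7 with the replicate block and 2 without those arrays. Relations with Hspa5 passing were 0 by Spearman's rho and 0 by exact permutation within genotypes, against 3. Nupr1 changed sign to 0.06 without the 4 arrays and 0.05 with the pancreas mean as a covariate, and ranged from -0.14 to 0.13 without 1 array. The causes were not tested. Each member had 1 probe set, so averaging probe sets was not run.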
